A study of Mus musculus with 28 samples.

Results

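Gcsam, Clnk, Dbn1, Ttc39a, Cd24a and Ahnak are 6 genes that conventional dendritic cells of type 1 (cDC1) express above those of type 2 (cDC2), and that a population named hybrid DC holds at a reduced level. They are 6 of the 55487 genes counted in mouse splenic dendritic cells, and each symbol matched 1 Ensembl gene in both count tables. The members were chosen by measured values of these libraries: the level in hybrid cells against cDC1 of the same genotype, and the level in wild-type (WT) cDC1 against WT cDC2. Values of those contrasts are therefore given as a description, with no test.

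RNA was sequenced from sorted spleen cells of C57BL/6 mice in 28 libraries, 2 for each of 14 groups, in 2 separate experiments. Experiment 1 (16 libraries) held hybrid cells of Irf8 +32H/H (H/H) and Irf8 +32H/+ (H/+) mice, cDC1 of H/H, H/+ and WT mice, and cDC2 of the same 3 genotypes. Experiment 2 (12 libraries) held hybrid cells of Irf8 +32H/H Zeb2 -165d123 mice, Irf8 +32H/H Nfil3-/- mice and H/H mice, and cDC1 of Irf8 +32H/H Nfil3-/-, H/H and WT mice. H is an altered allele of the Irf8 +32 kb enhancer, and every hybrid library carries at least 1 copy of it. The doubly altered mice also carry both H copies, so Nfil3 loss and the Zeb2 -165d123 alteration were measured only on the H/H background. The labels give no ages, sort gates or pooling of animals, and no base changes for H or d123.

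IRF8 and BATF3 set the identity of cDC1, the dendritic cells known for cross-presenting antigen to CD8 T cells, whereas ZEB2 is a repressor typical of cDC2 and plasmacytoid dendritic cells, and NFIL3 is a bZIP factor that acts ahead of ZEB2 in cDC1 development. Gcsam and Clnk encode adaptors of immune receptor signalling. GCSAM was described in germinal-centre B cells, where it binds SYK and RHOA regulators and restrains motility. CLNK, also called MIST, belongs to the SLP-76 family of adaptors. Dbn1 encodes drebrin, which binds and stabilises actin filaments and is best known from dendritic spines of neurons. Cd24a encodes the heat-stable antigen CD24, a glycosylated surface protein with a lipid anchor that is used to sort splenic cDC1 and is also made by B cells, granulocytes and erythroid precursors. Ahnak encodes a giant scaffold protein that lies under the plasma membrane and binds S100A10 with annexin A2. Ttc39a encodes a protein with tetratricopeptide repeats, whose role in dendritic cells is not established.

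Libraries held 23393658 to 38174301 counts in experiment 1 and 17540512 to 22708519 counts in experiment 2. Levels below are in CPM, after TMM scaling of the libraries. Adjusted p is from edgeR's quasi-likelihood test with Benjamini-Hochberg adjustment over 16036 genes in experiment 1 and 14504 in experiment 2, all 6 members included, and "called" means below 0.05. Irf8 of experiment 1 averaged 561.7 CPM in H/H and 399 CPM in H/+ hybrid cells. In cDC1 of that experiment it averaged 834 CPM in H/H, 1156 CPM in H/+ and 2270 CPM in WT cells. In experiment 2 Irf8 averaged 340.7 CPM in H/H hybrid cells, 611.4 CPM in H/H cDC1 and 2141 CPM in WT cDC1. Nfil3 of experiment 2 was at 5.62 and 5.70 CPM in Nfil3-/- hybrid cells, against 41.6 and 55.3 CPM in H/H hybrid cells. Zeb2 of the same experiment was at 10.3 and 19.6 CPM in Zeb2 -165d123 hybrid cells, against 38.6 and 46.9 CPM in H/H hybrid cells (edgeR adjusted p = 0.00555). Both alterations thus show in the libraries that carry their labels. Xist, RNA of the inactive X chromosome, reached 10 CPM in all 8 libraries numbered 2 and in none of the 8 numbered 1 of experiment 1. In experiment 2 it did so in 1 library each of the Zeb2 -165d123 hybrid, Nfil3-/- hybrid and Nfil3-/- cDC1 groups and in no other. The 23 cDC1 markers checked summed to 19315 and 18124 CPM in WT cDC1, against 1283 and 1212 CPM in WT cDC2, and to 7434 to 10067 CPM in hybrid cells of experiment 1.

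The stretch around the RefSeq start, 250 bases before it to 50 after, is shown for Gcsam, Clnk and Ttc39a, whose RNA rose most in hybrid cells with the altered Zeb2 enhancer, and for Dbn1, the only member with a match to a motif searched. RefSeq (GRCm38.p6) gave this stretch for 5 of the 6 members. The windows are chr16:45610190-45610489 on the plus strand for Gcsam, chr5:38876644-38876943 on the minus strand for Clnk, chr4:109415397-109415696 on the plus strand for Ttc39a and chr13:55488027-55488326 on the minus strand for Dbn1. Sequences run 5′ to 3′ in the direction of transcription, and capitals mark a motif match.
Gcsam: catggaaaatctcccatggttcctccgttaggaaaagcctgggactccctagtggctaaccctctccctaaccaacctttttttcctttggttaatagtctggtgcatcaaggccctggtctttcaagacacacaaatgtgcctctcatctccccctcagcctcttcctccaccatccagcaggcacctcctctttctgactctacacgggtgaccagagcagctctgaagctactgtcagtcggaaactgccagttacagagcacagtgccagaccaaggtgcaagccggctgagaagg
Clnk: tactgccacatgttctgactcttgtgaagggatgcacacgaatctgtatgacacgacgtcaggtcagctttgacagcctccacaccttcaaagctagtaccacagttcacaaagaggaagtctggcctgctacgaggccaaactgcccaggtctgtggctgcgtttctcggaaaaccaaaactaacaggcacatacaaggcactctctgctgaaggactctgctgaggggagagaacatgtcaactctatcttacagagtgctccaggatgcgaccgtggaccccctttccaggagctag
Ttc39a: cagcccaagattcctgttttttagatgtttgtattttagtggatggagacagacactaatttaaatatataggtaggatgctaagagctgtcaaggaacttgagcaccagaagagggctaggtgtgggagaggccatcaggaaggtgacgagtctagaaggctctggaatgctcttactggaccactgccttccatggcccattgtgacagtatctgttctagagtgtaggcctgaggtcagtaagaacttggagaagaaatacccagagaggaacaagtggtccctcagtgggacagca
Dbn1: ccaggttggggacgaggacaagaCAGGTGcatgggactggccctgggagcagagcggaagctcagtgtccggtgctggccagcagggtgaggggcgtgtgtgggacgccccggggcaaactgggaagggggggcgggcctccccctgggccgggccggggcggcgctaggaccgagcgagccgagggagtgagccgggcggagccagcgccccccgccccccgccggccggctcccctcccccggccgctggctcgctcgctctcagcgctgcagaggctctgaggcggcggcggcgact
Both strands of each window were searched for the E-box CACCTG that ZEB proteins bind, the NFIL3 and PAR bZIP site TTANGTAA, the AP-1 site TGANTCA and the cores of the ISRE and of the ETS-IRF composite element. The only match among the 5 members was the E-box in Dbn1, read as CAGGTG at position -227 from the start. Of 32851 promoters of the same length, 20.2% hold that E-box, 2.32% TTANGTAA, 7.81% TGANTCA, 3.44% the ISRE core and 2.72% the composite core. The windows differ in base composition, with 76.7% G and C in Dbn1 and 67.3% in Ahnak, against 53%, 52% and 47% in Gcsam, Clnk and Ttc39a. The Ttc39a window lies wholly inside the GENCODE M21 span of that gene, which begins at chr4:109406623. Its search therefore does not cover the outermost annotated start. Which start these cells use was not measured.

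On GRCm38 (GENCODE M21, by gene ID) all 6 are protein-coding genes. Gcsam spans chr16:45610380-45622867, Clnk chr5:38706462-38876812, Dbn1 chr13:55473429-55488111, Ttc39a chr4:109406623-109444745, Cd24a chr10:43578284-43584265 and Ahnak chr19:8989284-9076914. Annotated exons add up to 1719 bases in Clnk and 19938 bases in Ahnak. Per kb of exon, WT cDC1 of experiment 1 held 113 and 120 CPM of Gcsam, 91.3 and 86.6 CPM of Cd24a, 33.7 and 26.5 CPM of Dbn1, 16.4 and 14.7 CPM of Ttc39a, 9.72 and 9.35 CPM of Clnk, and 2.80 and 2.34 CPM of Ahnak. Ahnak is thus the lowest of the set once its length is counted. The 2 annotated genes that overlap a member, Clnkos and Mir6944, drew at most 3 counts over all libraries of an experiment.

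In WT mice the members ranged from nearly absent in cDC2 to moderately expressed there. Gcsam was at 387 and 411 CPM in WT cDC1, against 0.516 and 0.995 CPM in WT cDC2, a 509-fold difference. Ttc39a differed 90.6-fold, Clnk 60.6-fold, Dbn1 44.2-fold, Cd24a 9.97-fold and Ahnak 4.41-fold in the same direction. Cd24a and Ahnak keep a clear level in cDC2, at 20.4 to 25.7 CPM and 11.3 to 11.9 CPM. All 6 did not overlap between these groups, as did 34.0% of all genes in that direction, which the choice of members fixes.

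Hybrid cells held less of every member than cDC1 of the same genotype, with log2 differences of -3.09 to -1.46. Gcsam was at 40.2 and 46.8 CPM in H/H hybrid libraries of experiment 1, against 259 and 250.3 CPM in H/H cDC1. In experiment 2 it was at 21.1 and 18.6 CPM in H/H hybrid libraries, against 152 and 169 CPM in H/H cDC1. In the same experiment Clnk was at 2.71 and 2.82 CPM in the H/H hybrid libraries, against 14.6 and 19.4 CPM in H/H cDC1. Ahnak showed the smallest reduction in 2 of the 3 contrasts, 2.75-fold in H/+ and 2.90-fold in H/H cells of experiment 2, and was 4.12-fold lower in H/H cells of experiment 1. The libraries of the groups were apart for all 6 members in each contrast, while 24.9% of all genes were so for H/+, 24.5% for H/H in experiment 1 and 26.6% for H/H in experiment 2. In bulk RNA, fewer cells that express a gene and less of its RNA per cell cannot be told apart.

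**Figure D1:**
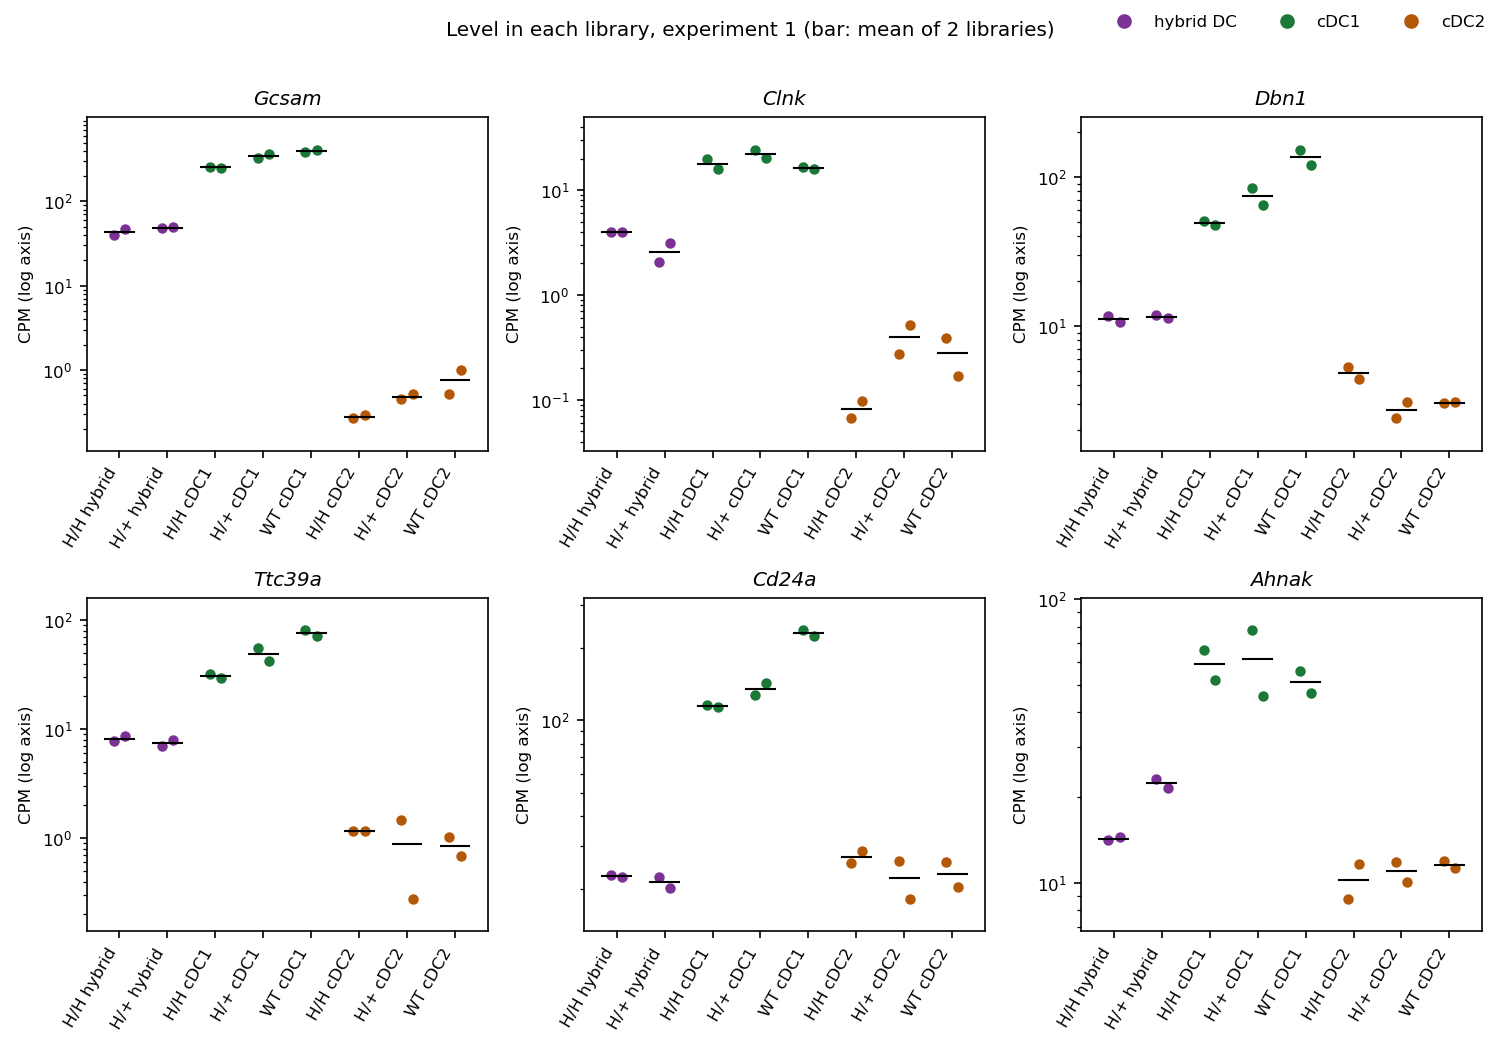
CPM of the 6 genes in each of the 16 libraries of experiment 1, on log axes, with hybrid cells, cDC1 and cDC2 of H/H, H/+ and WT mice from left to right. Points are libraries and bars the mean of 2, and hybrid cells lie below cDC1 in all panels, while Cd24a in hybrid cells (20.2 to 22.7 CPM) lies at its cDC2 level.

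Between cDC2 and cDC1 of their own genotype, hybrid cells took a different place for each gene. On the log2 CPM scale, with cDC2 at 0% and cDC1 at 100%, Gcsam in H/H hybrid cells stood at 72.0% and 74.4%, Clnk at 69.1% in both libraries, Ttc39a at 57.3% and 60.4%, and Dbn1 at 38.2% and 33.8%. Ahnak stood at 19.0% and 20.5% in H/H hybrid cells, and at 44.3% and 40.2% in H/+ hybrid cells. Cd24a stood at -12.3% and -13.1% in H/H hybrid cells and at 1.57% and -4.09% in H/+ hybrid cells. It was the only member at or near its cDC2 level in both genotypes.

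Above the cDC2 level, Gcsam, Clnk, Dbn1 and Ttc39a were higher in hybrid cells of both genotypes, and Ahnak in H/+ hybrid cells. These tests use the hybrid libraries that also served the choice of members, though against other libraries. In H/H mice 4 of 6 members were called higher, where 12.9% of all genes were, and in H/+ mice 5 of 6, where 10.3% were. Gcsam averaged 43.5 ± 4.7 CPM in H/H hybrid cells and 0.278 ± 0.017 CPM in H/H cDC2 (SD, n = 2 each), a log2 difference of 7.26 (SE 0.21, edgeR adjusted p = 1.40e-11). Clnk had 114 and 115 counts in H/H hybrid libraries but only 2 and 3 counts in H/H cDC2 libraries, a ratio of 49.0 after scaling with a 95% exact interval of 20.7 to 152 that covers counting error only. Dbn1 rose 2.30-fold in H/H hybrid cells over H/H cDC2 (edgeR adjusted p = 7.82e-05) and Ttc39a rose by 2.81 on the log2 scale (edgeR adjusted p = 0.000189). The Ttc39a difference in H/+ mice, 3.08 on the log2 scale, was 4.74 without replicate 1 and 2.34 without replicate 2 of H/+ cDC2, whose libraries held 1.48 and 0.276 CPM. Ahnak rose 2.04-fold in H/+ hybrid cells (edgeR adjusted p = 0.00467, and 0.0552 without replicate 2 of H/+ cDC2), while in H/H hybrid cells the log2 difference of 0.49 had an edgeR adjusted p of 0.128. Cd24a differed by -0.27 in H/H (SE 0.15, edgeR adjusted p = 0.220) and by -0.06 in H/+ mice (SE 0.15, edgeR adjusted p = 0.849).

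Between hybrid cells of the 2 genotypes, H/H against H/+, no member was called, and 0.131% of all genes were. Libraries of both groups took part in the choice of members. The edgeR count of 0 stands beside 2 members, Clnk and Ahnak, at an unadjusted p below 0.05, and DESeq2 also called 0. Clnk was at 4.01 CPM in both H/H hybrid libraries, against 2.05 and 3.12 CPM in H/+ hybrid libraries. Ahnak was at 14.1 and 14.5 CPM in H/H hybrid cells, against 23.2 and 21.7 CPM in H/+ hybrid cells. The log2 differences were 0.62 (SE 0.25) for Clnk and -0.65 (SE 0.22) for Ahnak.

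Within cDC1, H/H cells held less RNA of 4 of the 6 genes than WT cells in both experiments, namely Dbn1, Ttc39a, Cd24a and Gcsam. In experiment 1, 4 of 6 members were called lower in H/H than in WT cDC1, where 1.47% of all genes were, and the members' median log2 difference was -0.83, against 0.00 over all genes. In experiment 2 the same 4 genes were called lower, where 1.94% of all genes were, with a median of -1.03. These contrasts use no hybrid library, but the H/H and WT cDC1 libraries also took part in the choice of members.

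Dbn1 was at 50.4 and 47.7 CPM in H/H cDC1 of experiment 1, against 152 and 119.8 CPM in WT cDC1, which is 2.77-fold lower (log2 -1.47, SE 0.15, edgeR adjusted p = 2.85e-05). In experiment 2 it was at 32.5 and 45.6 CPM in H/H cDC1, against 155 and 114 CPM in WT cDC1, 3.44-fold lower (log2 -1.78, SE 0.36, edgeR adjusted p = 0.0235). The call of experiment 2 was lost without any single library of the groups, with edgeR adjusted p of 0.191 without replicate 1 and 0.0871 without replicate 2 of H/H, and of 0.147 without replicate 1 and 0.0672 without replicate 2 of WT.

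Ttc39a was at 32.4 and 29.5 CPM in H/H cDC1 of experiment 1, against 80.6 and 72.1 CPM in WT cDC1 (log2 -1.30, SE 0.28, edgeR adjusted p = 0.0212). In experiment 2 it was at 38.6 and 45.8 CPM in H/H cDC1, against 115 and 94.6 CPM in WT cDC1 (log2 -1.31, SE 0.16, edgeR adjusted p = 6.80e-05). In experiment 1 its call was lost without any single library of the groups, with edgeR adjusted p of 0.149 and 0.168 without replicates 1 and 2 of H/H, and of 0.144 and 0.103 without replicates 1 and 2 of WT.

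Cd24a was at 115 and 114 CPM in H/H cDC1 of experiment 1, against 235.5 and 223 CPM in WT cDC1, 2.01-fold lower (edgeR adjusted p = 0.000707). Experiment 2 gave 137 and 111 CPM in H/H cDC1, against 260.2 and 296 CPM in WT cDC1, 2.24-fold lower (edgeR adjusted p = 0.000595). Gcsam was at 259 and 250.3 CPM in H/H cDC1, against 387 and 411 CPM in WT cDC1 of experiment 1, 1.57-fold lower (edgeR adjusted p = 0.00696). In experiment 2 Gcsam was 1.85-fold lower, at 152 and 169 CPM in H/H cDC1, against 291 and 302 CPM in WT cDC1 (edgeR adjusted p = 0.000175). The Gcsam call of experiment 1 was lost without replicate 1 of H/H (edgeR adjusted p = 0.0564), replicate 2 of H/H (0.0742) or replicate 2 of WT (0.0789).

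Clnk and Ahnak did not pass in cDC1. Clnk differed by 0.13 (SE 0.22) in experiment 1 and by -0.28 (SE 0.16) in experiment 2 on the log2 scale, and Ahnak by 0.20 (SE 0.21) and -0.05 (SE 0.13). Clnk libraries of H/H cDC1 (19.8 and 16.01 CPM) overlapped those of WT cDC1 (16.7 and 16.1 CPM) in experiment 1, and Ahnak libraries overlapped in both experiments.

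With a single altered copy fewer members were called. In H/+ cDC1, 2 of 6 members were called lower than in WT cDC1, where 0.312% of all genes were. Libraries of both groups took part in the choice of members, so the count is not independent of it. Dbn1 was at 83.9 and 64.5 CPM in H/+ cDC1, against 152 and 119.8 CPM in WT cDC1, 1.83-fold lower (edgeR adjusted p = 0.00876). Cd24a was at 127 and 143 CPM in H/+ cDC1, against 235.5 and 223 CPM in WT cDC1, 1.70-fold lower (edgeR adjusted p = 0.0180). Both calls were lost when only these groups were fitted (edgeR adjusted p = 0.0962 for Dbn1 and 0.0531 for Cd24a). That of Dbn1 was lost without replicate 1 of WT (0.105), and that of Cd24a without replicate 1 of H/+ (0.145), replicate 1 of WT (0.118) or replicate 2 of WT (0.0818). Ttc39a differed by -0.65 (SE 0.28) and Gcsam by -0.22 (SE 0.13), neither called. Clnk and Ahnak went the other way, by 0.44 (SE 0.22) and 0.27 (SE 0.21), neither called.

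**Figure D2:**
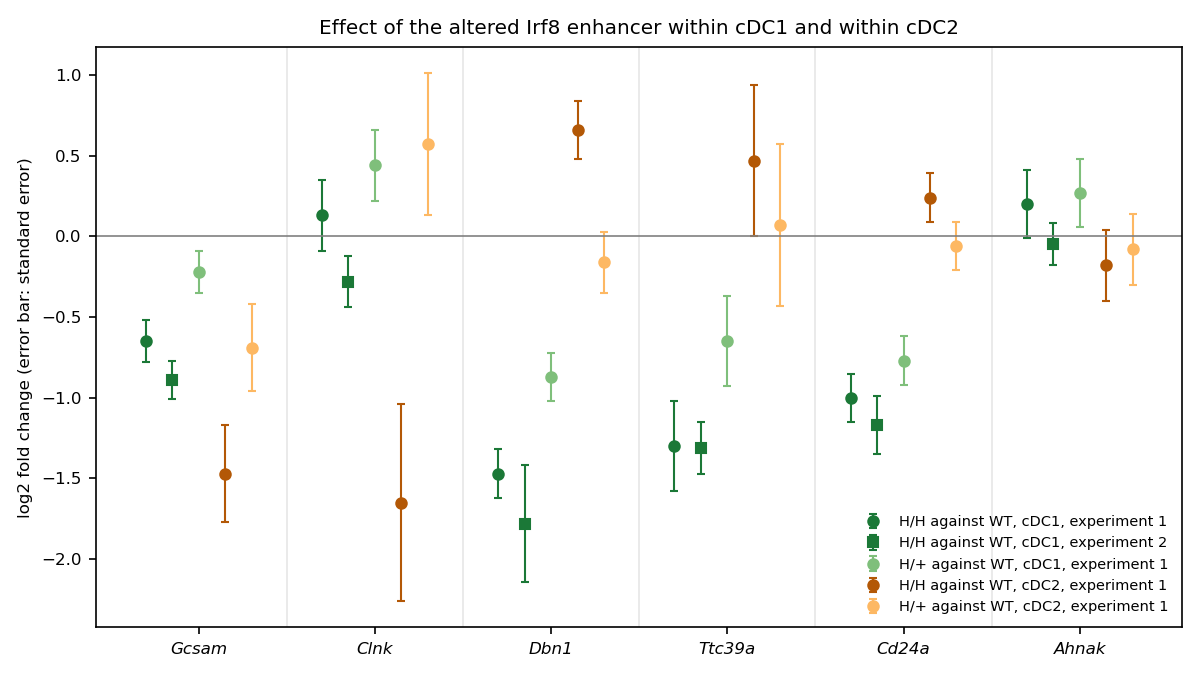
Log2 fold changes with standard errors of H/H and H/+ against WT cells, in cDC1 (green, experiments 1 and 2) and cDC2 (orange, experiment 1), for each gene. Dbn1 is lower in H/H cDC1 (-1.47 and -1.78) and stands at 0.66 in H/H cDC2, where no member passed the test.

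In cDC2 no member was called in H/H against WT cells, where 0.0811% of all genes were, nor in H/+ against WT cells, where 0.0249% were. The WT cDC2 libraries took part in the choice of members, so these counts are not independent of it. At an unadjusted p below 0.05 edgeR had 3 members (Gcsam, Clnk and Dbn1) in H/H and 1 member (Gcsam) in H/+ cDC2, and DESeq2 called 0 in both. Dbn1 was at 5.33 and 4.38 CPM in H/H cDC2, against 3.03 and 3.10 CPM in WT cDC2 (log2 0.66, SE 0.18, edgeR adjusted p = 0.551). Gcsam was at 0.267 and 0.290 CPM in H/H cDC2, against 0.516 and 0.995 CPM in WT cDC2, which rests on 8 and 9 against 16 and 41 counts. With no filter on low counts, edgeR adjusted p fell below the threshold for Gcsam (0.0259) and Dbn1 (0.0199), and without replicate 1 of WT cDC2 it was 0.00902 for Gcsam.

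The H/H effect differed between cDC1 and cDC2 for Dbn1 and Cd24a, in an interaction test that was added after the data were seen. The difference, cDC1 minus cDC2, was -2.13 on the log2 scale for Dbn1 (SE 0.23, edgeR adjusted p = 9.29e-05) and -1.24 for Cd24a (SE 0.21, edgeR adjusted p = 0.00400). These 2 of 6 members were called lower, where 0.505% of all genes were. The test contains the difference between WT cDC1 and WT cDC2, which chose the members, so it is not independent of the choice. Ttc39a had a difference of -1.77 (SE 0.55, edgeR adjusted p = 0.187), which passed when only these groups were fitted (0.00360) or with no filter (0.0188).

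In hybrid cells of H/H mice, the Zeb2 -165d123 alteration came with higher RNA of 4 members, Clnk, Ttc39a, Gcsam and Cd24a. Of all genes 2.23% were called higher in this contrast, and the median log2 difference was 1.83 over the 6 members and -0.00 over all genes. The members were listed with this result and that of the Nfil3 contrast known, and both contrasts share the 2 H/H hybrid libraries. Low levels in those libraries against H/H cDC1 also served the choice of members, which favours higher values in both contrasts. Neither contrast is therefore independent of the choice. Clnk was at 19.2 and 19.5 CPM in Zeb2 -165d123 hybrid cells, against 2.71 and 2.82 CPM in H/H hybrid cells, 6.98-fold higher (log2 2.80, SE 0.19, edgeR adjusted p = 3.10e-07). Ttc39a was at 44.3 and 38.9 CPM in Zeb2 -165d123 hybrid cells, against 8.42 and 6.09 CPM in H/H hybrid cells, 5.72-fold higher (log2 2.52, SE 0.18, edgeR adjusted p = 8.17e-07). For the adaptor Gcsam the values were 94.0 and 78.1 CPM in Zeb2 -165d123 hybrid cells, against 21.1 and 18.6 CPM in H/H hybrid cells, 4.33-fold higher (log2 2.11, SE 0.13, edgeR adjusted p = 1.73e-07). The calls of these 3 genes and that of Cd24a held under all alternatives run.

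Cd24a was at 59.4 and 41.7 CPM in Zeb2 -165d123 hybrid cells, against 18.3 and 16.4 CPM in H/H hybrid cells, 2.91-fold higher (log2 1.54, SE 0.19, edgeR adjusted p = 0.000337). Ahnak was at 35.4 and 41.6 CPM in Zeb2 -165d123 hybrid cells, against 25.7 and 29.8 CPM in H/H hybrid cells (log2 0.47, SE 0.14, edgeR adjusted p = 0.0733). Dbn1 was at 19.0 and 8.89 CPM in Zeb2 -165d123 hybrid cells, against 3.80 and 6.94 CPM in H/H hybrid cells (log2 1.37, SE 0.42, edgeR adjusted p = 0.146). The 2 Zeb2 -165d123 libraries were far apart for Dbn1. Without replicate 2 of that group the Dbn1 difference was 1.80 (edgeR adjusted p = 0.0148), without replicate 1 it was 0.73, and DESeq2 called it with all libraries (adjusted p = 0.0386). Replicate 1 had the lower Zeb2 level of the pair (10.3 against 19.6 CPM), and no Xist above 10 CPM, while replicate 2 held Xist. It had more Dbn1, Cd24a, Gcsam and Ttc39a than replicate 2, but less Ahnak (35.4 against 41.6 CPM) and a like level of Clnk (19.2 against 19.5 CPM). Irf8 was 1.46-fold higher in the same contrast (edgeR adjusted p = 0.0356). With a term for Xist the same 4 members were called, with log2 differences of 2.83 for Clnk, 2.61 for Ttc39a, 2.16 for Gcsam and 1.61 for Cd24a.

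Markers of other cells moved in the same contrast. Of 12 monocyte and macrophage markers 6 were called higher and 2 lower, among them the complement gene C1qc at 38.2 and 42.8 CPM in Zeb2 -165d123 hybrid cells, against 7.28 and 4.57 CPM in H/H hybrid cells (edgeR adjusted p = 4.31e-06). Lyz2, which encodes lysozyme, was 2.95-fold lower and Ccr2, a monocyte chemokine receptor, 7.69-fold lower. The list summed to 951 and 1036 CPM in Zeb2 -165d123 hybrid cells, against 1094 and 1124 CPM in H/H hybrid cells. Of 7 erythroid markers tested, Alas2 had the smallest edgeR adjusted p (0.212), and the 8 of the list summed to 178 and 124 CPM in Zeb2 -165d123 hybrid cells, against 102 and 22.5 CPM in H/H hybrid cells, with none at 0 in either group. The part of these cells in the Cd24a result was not tested.

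Nfil3 loss in H/H hybrid cells came with higher Clnk and Ttc39a and with lower Ahnak. For the other 3 members the test was not passed. Of the members 2 were called higher, where 1.93% of all genes were, and 1 lower, where 1.80% were. As in the Zeb2 contrast, the H/H hybrid libraries took part in the choice of members, so these counts are not independent of it. Clnk was at 10.2 CPM in both Nfil3-/- hybrid libraries, against 2.71 and 2.82 CPM in H/H hybrid cells, 3.68-fold higher (log2 1.88, SE 0.19, edgeR adjusted p = 3.46e-05). Ttc39a was at 14.6 and 14.4 CPM in Nfil3-/- hybrid cells, against 8.42 and 6.09 CPM in H/H hybrid cells, 1.99-fold higher (log2 0.99, SE 0.19, edgeR adjusted p = 0.00585). The Ttc39a call was lost without replicate 2 of H/H hybrid cells, with a log2 difference of 0.78 (edgeR adjusted p = 0.143).

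Ahnak went the other way. It was at 12.2 and 10.1 CPM in Nfil3-/- hybrid cells, against 25.7 and 29.8 CPM in H/H hybrid cells, 2.50-fold lower (log2 -1.32, SE 0.15, edgeR adjusted p = 6.75e-05). Gcsam was at 28.2 and 26.0 CPM in Nfil3-/- hybrid cells, against 21.1 and 18.6 CPM in H/H hybrid cells, a log2 difference of 0.45 that the test missed (SE 0.13, edgeR adjusted p = 0.0672). DESeq2 (adjusted p = 0.0220), the fit of these groups alone (0.0320) and the fit with no filter (0.0360) called it. Cd24a differed by 0.41 (SE 0.19, edgeR adjusted p = 0.232) and Dbn1 by 0.23 (SE 0.44, edgeR adjusted p = 0.808).

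Zeb2 itself was at 19.5 and 27.8 CPM in these Nfil3-/- hybrid cells, against 38.6 and 46.9 CPM in H/H hybrid cells (edgeR adjusted p = 0.0805). Neutrophil markers were higher there: 3 of 8 tested (Ltf, Camp and Mpo) were called higher, and the 10 of the list summed to 52.1 and 99.1 CPM in Nfil3-/- hybrid cells, against 4.62 and 6.15 CPM in H/H hybrid cells, with Ly6g at 0 in H/H hybrid cells. Ighm, the B cell heavy chain, was 1.67-fold higher (edgeR adjusted p = 0.0134), while the other B cell markers tested were not called. Ms4a1 and Cd79b went the other way, at -0.45 and -0.69 on the log2 scale, and the median of the 5 B cell markers tested was -0.45. The part of these cells in the results on Nfil3-/- cells was not tested. With a term for Xist the calls were the same 3, at 1.91 for Clnk, 1.10 for Ttc39a and -1.33 for Ahnak on the log2 scale.

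**Figure D3:**
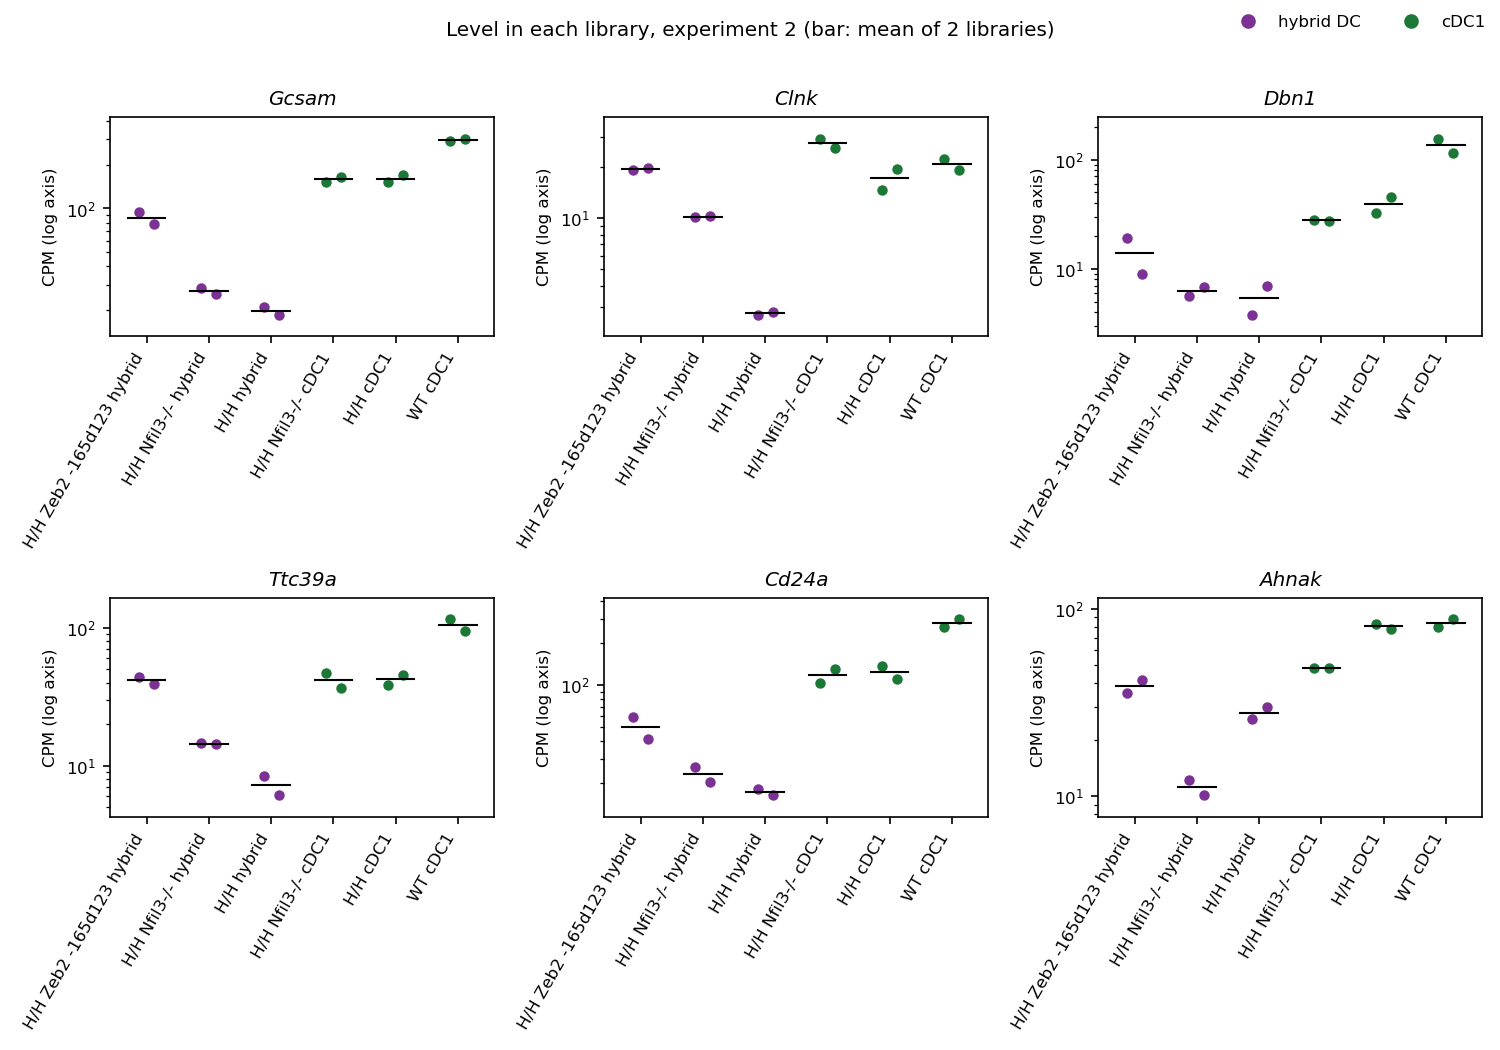
CPM of the 6 genes in each of the 12 libraries of experiment 2, on log axes, with the doubly altered hybrid cells left of H/H hybrid cells and Nfil3-/- cDC1 left of H/H and WT cDC1. Points are libraries and bars the mean of 2, and the 2 Dbn1 points of Zeb2 -165d123 hybrid cells lie at 19.0 and 8.89 CPM.

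Set against the gap between H/H hybrid cells (0%) and H/H cDC1 (100%) on the log2 CPM scale, Clnk in Zeb2 -165d123 hybrid cells stood at 107% and 108% and Ttc39a averaged 99.3%. Gcsam stood at 74.4% and 65.6%, Cd24a at 62.7% and 44.7%, Dbn1 at 64.8% and 27.0%, and Ahnak at 22.8% and 37.9%. In Nfil3-/- hybrid cells Clnk stood at 71.8% and 72.0% and Ttc39a at 40.0% and 39.2%, while Gcsam averaged 14.9%, Cd24a 14.2% and Dbn1 9.47%. Ahnak stood at -76.6% and -94.4%, that is, below H/H hybrid cells. The gap itself chose the members, so these shares describe the libraries and carry no test.

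**Figure D4:**
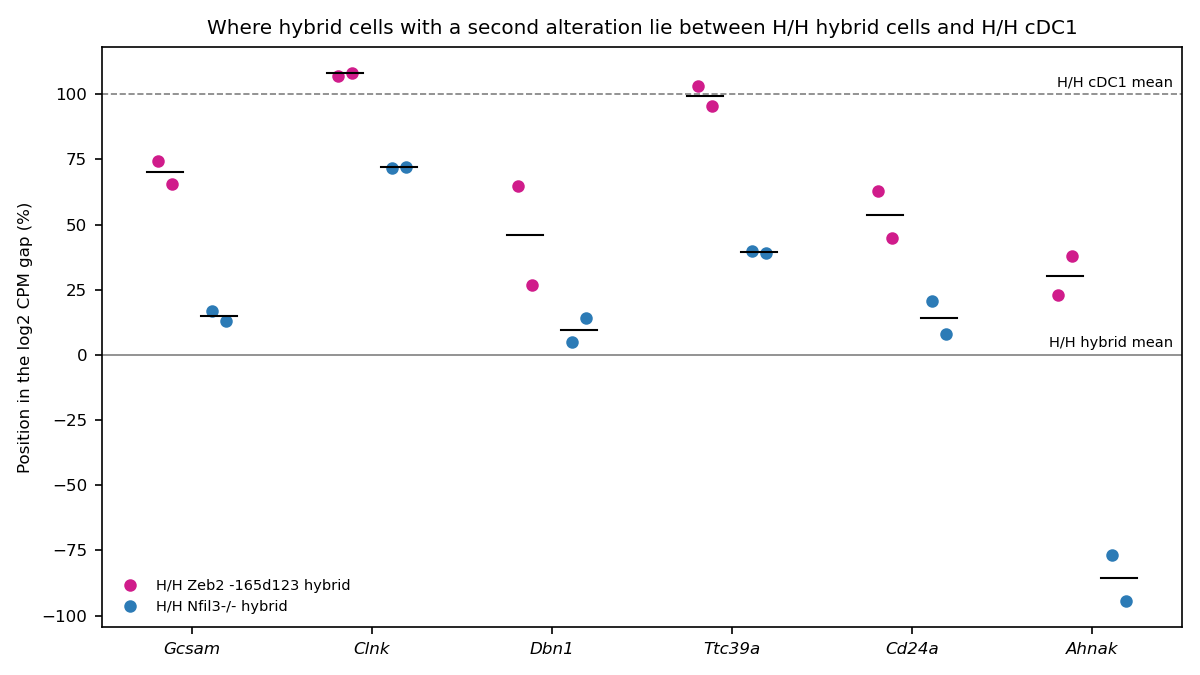
Place of each library of Zeb2 -165d123 and Nfil3-/- hybrid cells in the log2 CPM gap between H/H hybrid cells (0%) and H/H cDC1 (100%), per gene, with bars for the mean of 2 libraries. Clnk and Ttc39a of Zeb2 -165d123 hybrid cells average 108% and 99.3%, and Ahnak of Nfil3-/- hybrid cells averages -85.5%.

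Set directly against each other, Zeb2 -165d123 hybrid cells held more Ahnak, Gcsam, Ttc39a, Cd24a and Clnk than Nfil3-/- hybrid cells. Of the members 5 of 6 were called higher, where 5.70% of all genes were. Results of both groups were known when the members were listed, so this contrast is not independent of the choice either. Ahnak differed most, at 35.4 and 41.6 CPM in Zeb2 -165d123 hybrid cells, against 12.2 and 10.1 CPM in Nfil3-/- hybrid cells, 3.46-fold (log2 1.79, SE 0.15, edgeR adjusted p = 1.94e-06). Gcsam differed 3.17-fold (edgeR adjusted p = 1.09e-06), Ttc39a 2.87-fold (edgeR adjusted p = 4.90e-05), Cd24a 2.19-fold (edgeR adjusted p = 0.00126) and Clnk 1.90-fold (edgeR adjusted p = 0.00192). For Dbn1 the log2 difference of 1.14 (SE 0.41) had an edgeR adjusted p of 0.118, and one of 0.0133 without replicate 2 of Zeb2 -165d123.

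Compared with H/H cDC1, Zeb2 -165d123 hybrid cells remained lower in 4 of 6 members, where 9.56% of all genes were called lower. The H/H cDC1 libraries took part in the choice of members, and the Zeb2 -165d123 result was known, so the count describes these libraries and supports nothing further. Cd24a was 2.46-fold lower (edgeR adjusted p = 0.000201), Ahnak 2.10-fold (edgeR adjusted p = 7.40e-05), Gcsam 1.87-fold (edgeR adjusted p = 0.000143) and Dbn1 2.82-fold (edgeR adjusted p = 0.0248). The Dbn1 call was lost without replicate 1 (edgeR adjusted p = 0.0646) or replicate 2 (0.120) of H/H cDC1 and when only these groups were fitted (0.0546). Clnk differed by 0.18 (SE 0.16, edgeR adjusted p = 0.448) and Ttc39a by -0.02 (SE 0.16, edgeR adjusted p = 0.941), and the libraries of both groups overlapped for each. Markers of other cells were called higher in the same contrast: 7 of 7 erythroid, 8 of 12 monocyte and macrophage, 2 of 8 neutrophil and 16 of 22 cDC2 markers tested. Erythroid markers summed to 178 and 124 CPM in Zeb2 -165d123 hybrid cells, against 9.63 and 11.3 CPM in H/H cDC1, and monocyte and macrophage markers to 951 and 1036 CPM, against 304 and 386 CPM. Neutrophil markers summed to 14.4 and 2.90 CPM in Zeb2 -165d123 hybrid cells (Camp, Ly6g and Elane at 0), against 0.461 and 0.536 CPM in H/H cDC1 (Camp, Retnlg, Ly6g and Elane at 0), and cDC2 markers to 2039 and 2026 CPM, against 1182 and 1123 CPM. The part of these cells in the members' differences was not tested.

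In cDC1 on the H/H background, Clnk was higher and Ahnak lower without Nfil3, the directions seen in hybrid cells. Here 1 of 6 members was called higher, where 1.34% of all genes were, and 1 lower, where 1.69% were. High levels in the H/H cDC1 libraries against hybrid cells served the choice of members, so this contrast is not independent of it. Clnk was at 29.2 and 25.8 CPM in Nfil3-/- cDC1, against 14.6 and 19.4 CPM in H/H cDC1, 1.61-fold higher (log2 0.69, SE 0.16, edgeR adjusted p = 0.0247). Ahnak was at 48.2 and 48.3 CPM in Nfil3-/- cDC1, against 83.3 and 78.1 CPM in H/H cDC1, 1.67-fold lower (log2 -0.74, SE 0.14, edgeR adjusted p = 0.00575). The Clnk call was lost when only these groups were fitted (edgeR adjusted p = 0.0902), without replicate 1 (0.180) or 2 (0.0690) of Nfil3-/- cDC1 and without replicate 1 of H/H cDC1 (0.293), and the Ahnak call without replicate 2 of Nfil3-/- cDC1 (0.0571). Neutrophil markers summed to 36.8 and 29.1 CPM in these Nfil3-/- cDC1, against 0.461 and 0.536 CPM in H/H cDC1. Dbn1 was at 28.1 and 27.4 CPM in Nfil3-/- cDC1, against 32.5 and 45.6 CPM in H/H cDC1 (log2 -0.49, SE 0.36, edgeR adjusted p = 0.570). Gcsam, Cd24a and Ttc39a differed by -0.02, -0.07 and -0.01 on the log2 scale, with signs that turned under other settings.

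The difference between the Nfil3 effects, hybrid minus cDC1, was called by edgeR for no member, where 0.00689% of all genes were, and DESeq2 also called 0. At an unadjusted p below 0.05 it was reached by 4 members. The difference contains the H/H hybrid against H/H cDC1 contrast of experiment 2. That contrast served the choice of members, so the result is not independent of the choice. Clnk had 1.19 (SE 0.25, edgeR adjusted p = 0.620), Ttc39a 1.00 (SE 0.25), Gcsam 0.46 (SE 0.18) and Ahnak -0.58 (SE 0.20), the last 3 with an edgeR adjusted p of 1.000. Among Nfil3-/- cells, hybrid cells stayed below cDC1 in all 6 members, where 1.26% of all genes were called lower. Log2 differences lay between -2.55 for Gcsam and -1.43 for Clnk. That contrast is built like the ones which chose the members, and the members were listed with results of the Nfil3-/- hybrid libraries known, so it is not independent of the choice. In it, 18 of 22 cDC2 and 10 of 12 monocyte and macrophage markers were called higher, the second list summing to 825 and 914 CPM in Nfil3-/- hybrid cells, against 278 and 263 CPM in Nfil3-/- cDC1, and the part of such cells was not tested. Dbn1, at 5.68 and 6.84 CPM in Nfil3-/- hybrid cells, against 28.1 and 27.4 CPM in Nfil3-/- cDC1 (edgeR adjusted p = 0.0194), lost its call without any single library, with edgeR adjusted p of 0.163 and 0.127 without replicates 1 and 2 of hybrid cells, and 0.101 and 0.126 without replicates 1 and 2 of cDC1.

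Genes that work with the members were read from lists, which were chosen with earlier results of these data known. Of 22 genes of ITAM and SLP-76 signalling, the setting of Gcsam and Clnk, none passed in either hybrid contrast, and the 2 genes with the smallest p were as follows. The kinase Syk, which GCSAM binds, was at 144 and 149 CPM in Nfil3-/- hybrid cells, against 188 and 193 CPM in H/H hybrid cells (edgeR adjusted p = 0.0587). Blnk, the B cell member of the SLP-76 family, was at 2.99 and 1.81 CPM in Zeb2 -165d123 hybrid cells, against 0.923 and 0.169 CPM in H/H hybrid cells (edgeR adjusted p = 0.0821). The list's median log2 difference was 0.13 in the Nfil3 contrast and -0.06 in the Zeb2 contrast.

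Of 29 genes of the actin cytoskeleton and drebrin partners, 2 were called higher and 1 lower with the Zeb2 alteration, and 1 higher without Nfil3. Fscn1, which encodes the actin-bundling protein fascin, was at 91.1 and 64.5 CPM in Zeb2 -165d123 hybrid cells, against 33.6 and 46.0 CPM in H/H hybrid cells (edgeR adjusted p = 0.0426). Marcksl1, a MARCKS family protein that binds actin, was 2.03-fold higher (edgeR adjusted p = 0.00741), and Enah, which promotes actin filament growth, was 3.51-fold lower at 0.920 and 0.182 CPM in Zeb2 -165d123 hybrid cells, against 1.96 and 1.75 CPM in H/H hybrid cells (edgeR adjusted p = 0.0492). Evl, of the same Ena/VASP family, was 1.35-fold higher in Nfil3-/- than in H/H hybrid cells (edgeR adjusted p = 0.0423). The median of this list was 0.05 and 0.01 on the log2 scale in the Zeb2 and the Nfil3 contrast.

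Partners of AHNAK did not move as a block. Of 17 genes tested, 1 was called higher and 4 lower in Nfil3-/- against H/H hybrid cells, and 3 higher and 2 lower in Zeb2 -165d123 against H/H hybrid cells. S100a10, whose product binds AHNAK with annexin A2, was at 10.1 and 9.76 CPM in Nfil3-/- hybrid cells, against 21.8 and 23.5 CPM in H/H hybrid cells, 2.28-fold lower (edgeR adjusted p = 0.000337). Anxa2 was 1.59-fold higher in Zeb2 -165d123 hybrid cells, at 97.8 and 89.2 CPM, against 59.4 and 58.0 CPM in H/H hybrid cells (edgeR adjusted p = 0.0178). S100a4 was lower in both contrasts, 1.82-fold in Nfil3-/- (edgeR adjusted p = 0.0119) and 2.26-fold in Zeb2 -165d123 hybrid cells (edgeR adjusted p = 0.00160). The annexin gene Anxa3 was 2.01-fold lower in Nfil3-/- hybrid cells (edgeR adjusted p = 0.0138), and the membrane repair gene Myof was 1.54-fold lower in Zeb2 -165d123 hybrid cells (edgeR adjusted p = 0.0192).

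In the TTC39 family 2 of 3 relatives of Ttc39a were tested. Ttc39b was at 89.0 and 85.7 CPM in Nfil3-/- hybrid cells, against 56.1 and 56.9 CPM in H/H hybrid cells, 1.55-fold higher (edgeR adjusted p = 0.00907), and it was not called with the Zeb2 alteration (log2 0.21, SE 0.13). Among 9 tested partners of CD24 and Siglecs, the smallest edgeR adjusted p without Nfil3 was 0.157, for Cd22. With the Zeb2 alteration 1 was called higher and 1 lower. Cd22, an inhibitory Siglec, was at 16.2 and 22.3 CPM in Zeb2 -165d123 hybrid cells, against 32.3 and 34.2 CPM in H/H hybrid cells (edgeR adjusted p = 0.0178). Siglec1, the macrophage sialoadhesin, stood at 1.04 and 1.95 CPM in Zeb2 -165d123 hybrid cells, against 0.163 and 0.226 CPM in H/H hybrid cells, just under the threshold.

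For comparison, 13 of 23 cDC1 markers were called higher in Nfil3-/- and 8 of 23 in Zeb2 -165d123 hybrid cells, against H/H hybrid cells. Itgae, which encodes CD103, was at 289 and 410 CPM in Nfil3-/- hybrid cells and 257 and 167 CPM in Zeb2 -165d123 hybrid cells, against 52.1 and 50.6 CPM in H/H hybrid cells. Naaa, a lysosomal amidase, was 3.06-fold higher without Nfil3. Of 22 cDC2 markers 1 was called higher and 4 lower without Nfil3, and 7 lower with the Zeb2 alteration. The 1 called higher was Lgals3, at 542 and 538 CPM in Nfil3-/- hybrid cells, against 250 and 257 CPM in H/H hybrid cells (edgeR adjusted p = 0.000122). Cx3cr1, a chemokine receptor, was at 3.37 and 3.33 CPM in Nfil3-/- hybrid cells and 1.32 and 1.04 CPM in Zeb2 -165d123 hybrid cells, against 10.1 and 7.45 CPM in H/H hybrid cells.

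The order of the levels over the groups can be read per gene. In experiment 1 the levels of Gcsam fell into 8 groups whose neighbours did not overlap, apart from H/+ and WT cDC2. Dbn1 overlapped between H/H and H/+ hybrid cells and between H/+ and WT cDC2. Ttc39a overlapped between the 2 kinds of hybrid cells and between H/+ cDC2 and each of the other cDC2 groups, while H/H cDC2 lay above WT cDC2, and Clnk overlapped between H/H and WT cDC1 and between H/+ and WT cDC2. Cd24a was set apart only in cDC1, where 114 to 115 CPM in H/H lay below 127 to 143 CPM in H/+ and 223 to 235.5 CPM in WT cells, and its 5 groups of hybrid cells and cDC2 each overlapped the next. Ahnak overlapped among the 3 cDC1 groups and among the 3 cDC2 groups, with both kinds of hybrid cells apart in between. In experiment 2, Gcsam and Cd24a overlapped only between Nfil3-/- and H/H cDC1, and Dbn1 only between Nfil3-/- and H/H hybrid cells. Ttc39a of Zeb2 -165d123 hybrid cells lay among Nfil3-/- and H/H cDC1, and Clnk of Zeb2 -165d123 hybrid cells among H/H and WT cDC1. Ahnak overlapped only between H/H and WT cDC1, and its lowest group was Nfil3-/- hybrid cells.

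The pair of members least alike in experiment 2 was Clnk and Ahnak. Pearson's r of log2 CPM between Clnk and Ahnak was 0.918 over 16 libraries of experiment 1 and 0.482 over 12 libraries of experiment 2. Between Gcsam and Ttc39a it was 0.959 in both. The libraries share group and sort, so these coefficients describe the pattern of group means. Among 7352 genes compared, those closest to Gcsam were Ppfibp1 (r = 0.969 and 0.973 in experiments 1 and 2), Fgd6 and Pdia5. Clnk was closest to Sec24d (0.943 and 0.941), Gramd2 and Gramd3, and Dbn1 to Unc119b (0.990 and 0.986), Pdlim7 and Rtl8b. Ttc39a was closest to Gcsam, Ppfibp1 (0.970 and 0.959) and St3gal5. Cd24a was closest to Txndc5 (0.955 and 0.948), Pdlim7 and the cDC1 surface gene Cd8a (0.974 and 0.938), and Ahnak to Prelid2 (0.933 and 0.951), Rabgap1l and Txndc16.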

How the data were processed

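Bulk RNA-seq libraries of sorted splenic dendritic cells were made, per the labels' protocols, from 10 ng of total RNA with a SMARTer Ultra Low kit. The deposited values are expected counts per Ensembl gene, 1 table per experiment, with 10.8% and 10.2% of values not whole. The submitters' processing notes name bcl2fastq, DRAGEN and edgeR. The genome build, the annotation and whether strand was used are not given in the sources used here. Counts were rounded, and 287 repeated gene lines per table were removed.

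Each experiment was fitted with edgeR 4.0.16 (R 4.3.3) with 1 mean per group over all its libraries, filterByExpr, TMM factors of 0.914 to 1.113 and 0.962 to 1.032, and robust quasi-likelihood F tests. P-values of each of the 16 contrasts tested were adjusted by Benjamini-Hochberg across the whole table, and 0.05 was the threshold. A further 4 contrasts are described only. Residual degrees of freedom were 8 and 6. SE is the log2 fold change over the square root of F, and a prior count of 2 went into log2 CPM. The labels call the duplicates biological. Levels were not compared between experiments, which were fitted together only as an alternative. The fit was tested on simulated data.

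The members and lists were chosen with earlier results of these data known. Named are the 6 members, Irf8, Nfil3 and Zeb2 as checks, the 3 genes most similar to each member by the lower r of both experiments among genes of at least 10 CPM, and up to 3 genes per list with the smallest p in the 2 hybrid contrasts. Of the pDC, T cell and NK cell markers, Bst2 (1.51-fold higher, edgeR adjusted p = 0.0478) and Trac (3.62-fold lower, edgeR adjusted p = 0.0497) were called without Nfil3, and with the Zeb2 alteration the smallest edgeR adjusted p was 0.132. Alternatives were RLE size factors, DESeq2 1.42.0, no filter, only the groups compared, a replicate block, a term for Xist, leaving out each library, and both experiments in 1 fit. Coordinates are from GENCODE M21, which holds 99.4% of the gene IDs.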

Additional observations from a re-analysis of the deposited data

Results flagged for a closer look

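The effect of both H copies differed between cDC1 and cDC2 for 2 members, by an interaction test added after the data were seen. The difference between WT cDC1 and WT cDC2, which chose the members, is part of this test, so it is not independent of the choice. Dbn1 was at 49.0 ± 1.9 CPM in H/H and 135.9 ± 22.7 CPM in WT cDC1, and at 4.86 ± 0.67 CPM in H/H and 3.07 ± 0.05 CPM in WT cDC2 (SD, n = 2 each), a difference of effects of -2.13 on the log2 scale (SE 0.23, edgeR adjusted p = 9.29e-05). Cd24a was at 114 ± 1.0 CPM in H/H and 229 ± 8.5 CPM in WT cDC1, and at 27.1 ± 2.2 CPM in H/H and 23.0 ± 3.8 CPM in WT cDC2, a difference of effects of -1.24 (SE 0.21, edgeR adjusted p = 0.00400). Irf8 had a difference of -2.46 in the same test (edgeR adjusted p = 3.65e-06).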

How the results depend on the processing

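Each group has 2 libraries, and p rests on the spread within such pairs, pooled over all groups of an experiment and with information shared across genes. Of 587 member values under alternatives other than leaving out a library, 559 kept direction and call, 4 lost it, 13 gained it and 11 turned sign, all 11 of values not called. Some values are counted more than once. In experiment 1 the replicate block and the Xist term are the same fit, and the fit of both experiments was entered for each of them. Fitting only the groups compared gave 0 in H/+ against WT cDC1 (2 reported) and 1 in Nfil3-/- against H/H cDC1 (2 reported), and no filter gave 1 in H/H against H/+ hybrid cells, 2 in H/H against WT cDC2 and 2 in the Nfil3 difference, hybrid minus cDC1 (0 reported in each). Counts moved by 1 to 4 (3 reported) in Nfil3-/- against H/H hybrid cells with no filter, DESeq2 or only the groups compared, to 5 (4) in Zeb2 -165d123 against H/H hybrid cells with DESeq2, to 3 (4) in Zeb2 -165d123 hybrid cells set against cDC1 of H/H mice with only the groups compared, and, with no filter or only the groups compared, to 5 (4) in H/H hybrid cells against cDC2 and 3 (2) in the cDC1 minus cDC2 difference. Signs turned at these log2 values: in the fit of both experiments -0.09 for Clnk and 0.07 for Ahnak in H/H against WT cDC1; in Nfil3-/- against H/H cDC1 0.01 for Ttc39a with RLE factors, no filter or DESeq2 and 0.08 with a Xist term, 0.01 (no filter), 0.03 (Xist term) and 0.00 (DESeq2) for Gcsam, and 0.03 for Cd24a with a Xist term; and, for Zeb2 -165d123 hybrid cells set against cDC1 of H/H mice, 0.07 for Ttc39a with a Xist term. The cause was not tested.

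Leaving out each library in turn kept 379 of 432 member values, ended 27 calls, gave 3 and turned 23 signs. Members called then ranged 0 to 2 in H/+ against WT cDC1, 2 to 3 and 3 to 3 in H/H against WT cDC1 of experiments 1 and 2, 0 to 1 in H/H against WT cDC2, 2 to 3 in Nfil3-/- and 4 to 5 in Zeb2 -165d123 against H/H hybrid cells, 0 to 2 in Nfil3-/- against H/H cDC1, 5 to 5 in Nfil3-/- hybrid cells against Nfil3-/- cDC1 and 3 to 4 in Zeb2 -165d123 hybrid cells set against cDC1 of H/H mice. Log2 values that turned sign, none of them called, ranged in H/+ against WT cDC1 from -0.16 to 0.60 (Ahnak), in H/H against WT cDC1 from -0.03 to 0.27 (Clnk, experiment 1) and -0.13 to 0.01 (Ahnak, experiment 2), and in H/H against H/+ hybrid cells from -0.13 to 0.02 (Dbn1). In H/+ against WT cDC2 they ranged from -0.35 to 0.01 (Dbn1), -1.59 to 0.81 (Ttc39a), -0.35 to 0.18 (Cd24a) and -0.20 to 0.03 (Ahnak), in H/H against WT cDC2 from -0.40 to 0.01 (Ahnak) and in H/+ hybrid cells against cDC2 from -0.29 to 0.23 (Cd24a). In Nfil3-/- against H/H cells they ranged from -0.12 to 0.73 (Dbn1, hybrid), -0.08 to 0.09 (Gcsam, cDC1), -0.19 to 0.17 (Ttc39a, cDC1) and -0.23 to 0.10 (Cd24a, cDC1), and in Zeb2 -165d123 hybrid cells against cDC1 from -0.01 to 0.39 (Clnk) and -0.14 to 0.09 (Ttc39a).

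The labels do not say that replicate numbers pair the samples, so the fit reported has no block. Deviations of same-numbered libraries correlated at 0.04 to 0.34 over 28 pairs of groups in experiment 1, above 0.1 in 24 of them, and at -0.20 to 0.23 over 15 pairs in experiment 2, above 0.1 in 2 of them. A replicate block changed no count of members called, with 2 in H/+ against WT cDC1, 3 in Nfil3-/- and 4 in Zeb2 -165d123 against H/H hybrid cells, but moved the genes called of all tested to 599 (236 without the block) in H/+ against WT cDC1, 59 (21) in H/H against H/+ hybrid cells, 17 (4) and 22 (13) in H/+ and H/H against WT cDC2 and 479 (305) in the cDC1 minus cDC2 difference. In experiment 1 the replicate number marks a factor that the libraries share, since it splits them as Xist does, in all 8 numbered 2 and none of the 8 numbered 1. Over the other settings the genes called ranged from 40 (only the groups compared) to 674 (no filter) in H/+ against WT cDC1, and reached 1953 in Nfil3-/- against H/H hybrid cells with only the groups compared, where 541 are called in all libraries, and 900 with no filter in Zeb2 -165d123 against H/H hybrid cells, where 584 are. No filter gave 153 (21 reported) in H/H against H/+ hybrid cells, 84 (4) and 79 (13) in H/+ and H/H against WT cDC2, 772 (440) in Nfil3-/- against H/H cDC1, 23 (1) in the Nfil3 difference and 568 (305) in the cDC1 minus cDC2 difference. Only the groups compared gave 548 (916) and both experiments in 1 fit 1822 (668 and 916) in H/H against WT cDC1. Leaving out a library gave 128 to 223 genes in Nfil3-/- and 128 to 261 in Zeb2 -165d123 against H/H hybrid cells, 596 to 963 (1584) between those 2, 59 to 458 (236) in H/+ and 336 to 437 (668) and 571 to 702 (916) in H/H against WT cDC1, 3 to 17 (21) in H/H against H/+ hybrid cells, 0 to 5 (4) and 7 to 18 (13) in H/+ and H/H against WT cDC2, 1797 to 2234 (3045) and 2520 to 3051 (4078) in H/+ and H/H hybrid cells against cDC2, 167 to 522 (440) in Nfil3-/- against H/H cDC1, 347 to 519 (766) in Nfil3-/- hybrid cells against Nfil3-/- cDC1, 1658 to 2676 (3056) in Zeb2 -165d123 hybrid cells set against cDC1 of H/H mice and 189 to 234 (305) in the cDC1 minus cDC2 difference.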
